A study of Rattus norvegicus with 6 samples.

Results

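The 9 genes described here encode axon guidance factors, a neurotrophic factor and receptors that cells of bone stroma also make: the semaphorins Sema3a and Sema3c, their receptor subunits Nrp1 and Plxna1, the Slit ligands Slit2 and Slit3, the Slit receptor Robo1, the netrin Ntn1 and the neurotrophin Bdnf. They were chosen by name, as the gene name that the array design gives to a probe, and all 16 probes of the 9 genes among the 45598 on the array were taken. All 9 genes passed the filter on dim signals, among 19570 genes that did. RNA came from rat bone marrow stromal cells (BMSCs), the adherent cells of tibia marrow, from which bone-forming, cartilage and fat cells can arise. The cells had grown for 7 days on titanium modified with tantalum (Ta, n = 3 arrays) or on simple titanium (Ti, n = 3 arrays), and each sample was read on a one-colour Agilent expression array. The labels give neither the strain and age of the rats nor whether the 3 cultures of a group came from different animals. The design text calls them independent experiments.

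Guidance factors are secreted or membrane-bound proteins that steer growing axons, and many also act on bone and vessel cells. Class 3 semaphorins bind neuropilins, which lack a signalling domain of their own and signal through plexins. Slits bind Robo receptors, netrin-1 binds DCC, neogenin and the UNC5 receptors, and BDNF binds the kinase TrkB (Ntrk2) and the neurotrophin receptor p75 (Ngfr). In mouse bone, Sema3A is known to restrain osteoclast formation and to favour osteoblasts, and Slit3 and netrin-1 have been described as signals between bone cells, vessels and nerves.

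Ntn1 and Sema3c were higher on Ta and Bdnf was lower, and these 3 of the 9 genes passed the test (limma, Benjamini-Hochberg adjusted p under 0.05 over all genes). Ntn1 differed most, by 2.74 ± 0.38 on the log2 scale (SE, n = 3 per group), followed among the 3 by Sema3c at 0.91 ± 0.16 and Bdnf at -0.42 ± 0.08. The share of all tested genes past the same test was 4.14%. Of the 9 genes 2 passed as higher (22.2%), against 2.66% of all genes, and 1 passed as lower (11.1%), against 1.48%. The 9 genes were chosen with earlier results of these data known. These shares, and the overlap and medians that follow, therefore cannot show an excess over other genes. The arrays of the groups did not overlap for 7 of the 9 genes, which held for 35.9% of all tested genes. The median absolute log2 difference was 0.646 over the 9 genes and 0.198 over all genes, and the median signed difference was 0.13 and 0.0257. These calls rested on each of 4 arrays: with replicate 2 or 3 of Ta, or replicate 1 or 3 of Ti, left out, 0 genes passed by limma, with 3810 to 4464 genes with an unadjusted p under 0.05, and the sign of the 3 differences stayed the same.

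**Figure D1:**
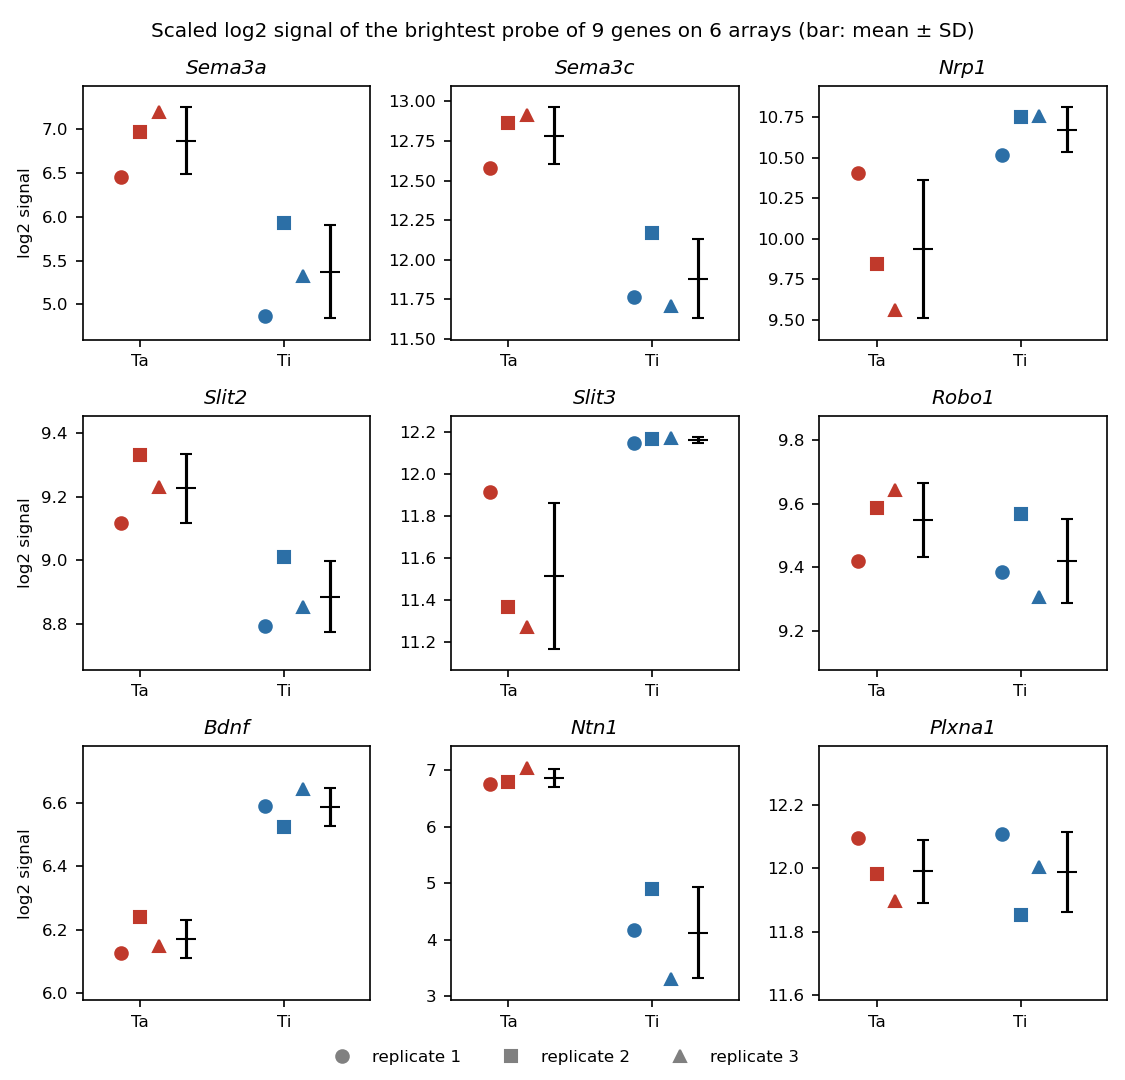
Scaled log2 signal (vertical axis, a separate range in each panel) of the brightest probe of each of the 9 genes on Ta (red, left) and Ti (blue, right). Symbols are replicate arrays and the bar is the mean ± SD (n = 3). The groups stand apart for Sema3a, Sema3c, Nrp1, Slit2, Slit3, Bdnf and Ntn1, and overlap for Robo1 and Plxna1.

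The share of spots well above background, controls left out, was 62.7% to 65.9% per array, and the signal's 75th percentile ran from 1848 to 2388. Signals are given as log2 of the processed intensity after each array was scaled by that percentile, so a difference of 1 is a doubling, and the level of one probe cannot be set against that of another. Ta replicate 1 and Ti replicate 2 tended to lie toward the other group. Ta replicate 1 was the Ta array nearest to the Ti arrays in 7 of the 9 genes and in 54.8% of all genes, and Ti replicate 2 was the Ti array nearest to the Ta arrays in 6 of the 9 and in 47.1% of all. The scanner software marked Ti replicate 2 for evaluation. All arrays shared 1 slide and 1 scan. Row 1 of the slide held the 3 Ta arrays together with Ti replicate 1, while the other Ti arrays were in row 2.

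Sema3c, a secreted class 3 semaphorin that binds neuropilins and acts on heart outflow and vessels during development, had a signal of 12.58, 12.86 and 12.91 on Ta, against 11.76, 12.17 and 11.71 on Ti. Every Ta array was above every Ti array, and the lowest Ta array was replicate 1 and the highest Ti array replicate 2. The difference was 0.91 ± 0.16 (1.87-fold higher, limma adjusted p = 0.0452). Its 1 probe maps to the minus strand at chr4:13740618-13740677 of the rat build rn4, and the first 30 of its 60 bases are shown, as for the probes that follow, to identify the transcript part that was measured.
Sema3c: ttaaaacggatctacatccttttacagtgc

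Sema3a, the founding class 3 semaphorin, which collapses growth cones through Nrp1 and class A plexins, was read by 2 probes on the minus strand of rn4, at chr4:17575223-17575282 and chr4:17566796-17566855, and both are shown because only the first was well above background on both surfaces.
Sema3a, brighter probe: aacacaatggatgagttctgtgaacaagtg
Sema3a, dimmer probe: gaggaacgggaagcaaaggtaattggagta
The brighter probe had 6.45, 6.96 and 7.19 on Ta, against 4.86, 5.93 and 5.33 on Ti, a difference of 1.49 ± 0.31 that did not pass the test (limma adjusted p = 0.0535). The groups were apart, with 0.52 between the nearest arrays, Ta replicate 1 and Ti replicate 2. The dimmer probe had 4.01, 4.53 and 4.11 on Ta, against 3.43, 3.40 and 3.60 on Ti. It was well above background on all 3 Ta arrays and on 0 of 3 Ti arrays, so its Ti level is only a bound. Sema3a was at least 1.57-fold higher on Ta by this probe, set against a floor on each Ti array, the higher of its own signal and the dimmest signal of any probe well above background. It passed the filter through the Ta arrays alone, so its adjusted p of 0.0513 in limma's probe test, which takes every probe on its own, adds no support to the brighter probe.

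Nrp1, the receptor subunit that binds Sema3A and some forms of VEGF-A, lay lower on Ta. Its brighter probe had 10.41, 9.84 and 9.56 on Ta, against 10.52, 10.75 and 10.76 on Ti, a difference of -0.74 ± 0.22 (limma adjusted p = 0.0916). Ta replicate 1 was close to the Ti arrays and the other 2 Ta arrays were well below them. The dimmer probe, whose 60 bases span 492 bases of the rn4 genome at chr19:58482301-58482792 and thus cross an intron, had 8.25, 7.78 and 7.56 on Ta, against 8.47, 8.33 and 8.27 on Ti, a difference of -0.49 ± 0.18 (probe test adjusted p = 0.14). For both Nrp1 probes the groups were apart, and neither passed. On each array the log2 ratio of Sema3a to Nrp1, as a difference from its Ti mean, was 1.34, 2.42 and 2.93 on Ta, against -0.35, 0.48 and -0.13 on Ti. This ratio was chosen after the values were seen and was not tested.

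Plxna1, a class A plexin that carries the semaphorin signal into the cell, was read by 3 probes and none differed beyond its spread. The brightest had 12.09, 11.98 and 11.90 on Ta, against 12.11, 11.85 and 12.00 on Ti, a difference of 0.00 ± 0.10 (95% interval -0.24 to 0.25, limma adjusted p = 0.989). The other Plxna1 probes differed by 0.12 ± 0.09 (interval -0.10 to 0.35) and 0.21 ± 0.13 (interval -0.10 to 0.51), with overlapping groups. These intervals leave room for differences of that size.

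The Slit ligands lay in opposite directions, and neither passed the test. Slit2, a secreted repellent that binds Robo receptors, had 9.12, 9.33 and 9.23 on Ta, against 8.79, 9.01 and 8.85 on Ti, by its brighter probe. That is a difference of 0.34 ± 0.10 (limma adjusted p = 0.0886), with the groups apart by 0.11 between Ta replicate 1 and Ti replicate 2. The dimmer Slit2 probe differed by 0.23 ± 0.12 (probe test adjusted p = 0.251), with overlapping groups. Slit3, its relative with a known part in mouse bone formation, had 11.91, 11.37 and 11.27 on Ta, against 12.15, 12.17 and 12.17 on Ti. The difference was -0.65 ± 0.18 (limma adjusted p = 0.0781). The Ti arrays spanned 0.02, whereas Ta replicate 1 lay between the Ti arrays and the other Ta arrays, and without Ta replicate 1 the difference was -0.84 with an adjusted p of 0.00868. With any other array left out it was -0.65 to -0.52 and did not pass (limma adjusted p between 0.109 and 0.232). The log2 ratio of Slit2 to Slit3 on each array, as a difference from its Ti mean, was 0.48, 1.24 and 1.24 on Ta, against -0.08, 0.12 and -0.04 on Ti. It was likewise chosen after the values were seen and was not tested.

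Robo1, a receptor of the Slits, was read by 3 probes that gave different pictures. They lie on the plus strand of rn4 at chr11:11722228-11722287, chr11:11719226-11719285 and chr11:11723572-11723631, and their starts are shown because the last probe stood apart from the others.
Robo1, brightest probe: gttctaagggaacaacccacgtgattaatg
Robo1, second probe: aatgtgggccgaagaaatatggcagaaatg
Robo1, dimmest probe: ctggtaagtaaaactcactgtgaaataccc
The brightest Robo1 probe had 9.42, 9.59 and 9.64 on Ta, against 9.38, 9.57 and 9.31 on Ti, a difference of 0.13 ± 0.11 with overlapping groups (limma adjusted p = 0.452). The second had 4.98, 5.41 and 5.10 on Ta, against 4.17, 5.16 and 4.18 on Ti, a difference of 0.66 ± 0.29 (probe test adjusted p = 0.187), with Ti replicate 2 inside the range of the Ta arrays. The dimmest had 2.97, 2.92 and 3.08 on Ta, against 2.10, 7.30 and 4.14 on Ti. It was well above background on 0 of 3 Ta and 2 of 3 Ti arrays and was not tested. By this probe Robo1 was at least 1.95-fold lower on Ta, and without Ti replicate 2, whose signal was 7.30, no such bound could be given.

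Ntn1, a laminin-like secreted cue that attracts or repels axons depending on the receptor, had the widest gap of the 9 genes. Its 1 probe lies on the minus strand of rn4 at chr10:54950706-54950765.
Ntn1: gcacaagtcgtatacgccgtggtgaccaga
The Ntn1 signal was 6.76, 6.80 and 7.05 on Ta, against 4.16, 4.90 and 3.31 on Ti, and the mean was 6.87 ± 0.16 on Ta and 4.13 ± 0.80 on Ti (SD, n = 3 each). The Ta arrays were close to each other and the Ti arrays were dim and spread over a wide range. The difference was 2.74 ± 0.38 (6.69-fold higher, limma adjusted p = 0.0397). The probe was well above background on 3 of 3 Ta and 2 of 3 Ti arrays, and with Ti replicate 3 raised to this floor the difference was 2.62 (6.15-fold). With normexp background correction the difference was 1.08 (limma adjusted p = 0.0127), so the size of the fold depends on the background correction.

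Bdnf, a neurotrophin that keeps neurons alive and shapes synapses, was lower on Ta by a small and even margin. Its 1 probe lies on the plus strand of a part of rn4 chromosome 3 that is not placed in order (chr3_random:979381-979440), and it does not tell apart the 6 start sites that the RefSeq promoter table of the GRCr8 assembly lists for the gene.
Bdnf: ctgctatatgctaactttttgcagcttcat
The Bdnf signal was 6.13, 6.24 and 6.15 on Ta, against 6.59, 6.53 and 6.64 on Ti. The Ta arrays spanned 0.11 and the Ti arrays 0.12, and the highest Ta array was 0.29 below the lowest Ti array. The difference was -0.42 ± 0.08 (1.33-fold lower, limma adjusted p = 0.0481). With normexp background correction the Bdnf difference was -0.18 with an adjusted p of 0.0956, and with eBayes trend and robust settings the adjusted p was 0.0568.

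**Figure D2:**
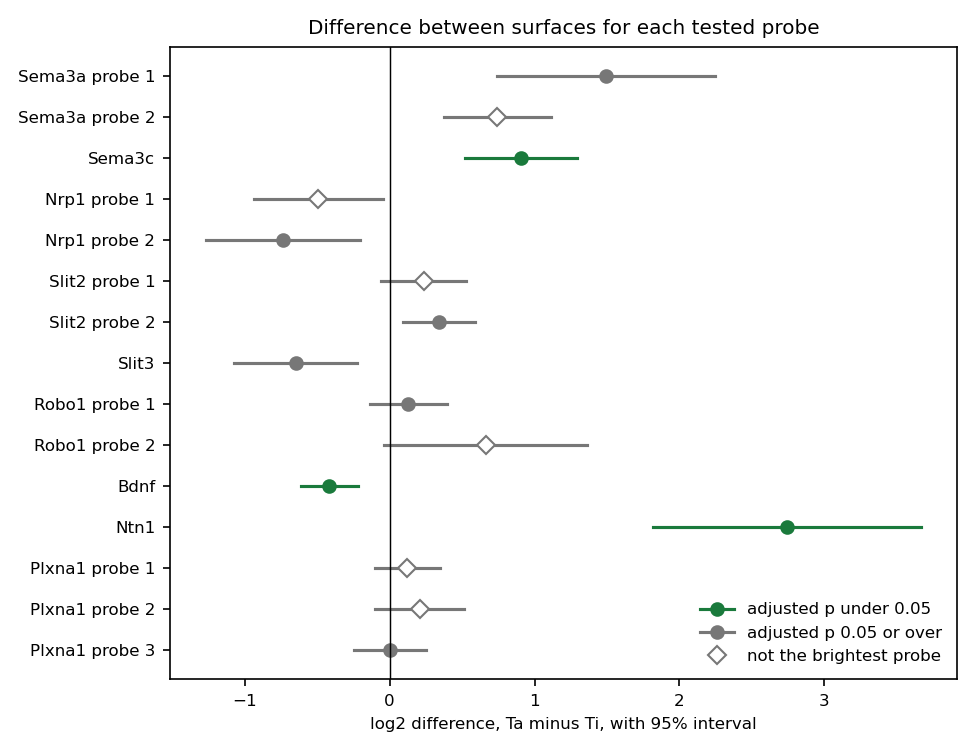
Log2 difference, Ta minus Ti (horizontal axis), with its 95% interval for each of the 15 tested probes of the 9 genes. Filled circles are the brightest probe of a gene, diamonds the others, and green marks an adjusted p under 0.05 in the probe test. Probes of 1 gene lie on the same side of 0, and the 3 green probes are those of Sema3c, Bdnf and Ntn1.

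Of the 16 probes, 15 were tested on their own, 3 passed the probe test, and the groups did not overlap for 9. Over all tested probes 4.31% passed, and the groups did not overlap for 35.2%. The 9 include the dimmer Sema3a probe, which passed the filter through Ta alone. No gene of the 9 had a second probe whose tested difference had the opposite sign to the first, as the plot of probe differences shows.

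The partners of the 9 genes were taken from lists of guidance and neurotrophic genes. Of 142 listed genes 108 were tested, 5 of these rose on Ta, 7 fell and 96 did not pass, the 9 genes included. Over all tested genes 2.66% rose and 1.48% fell. The median log2 difference was 0.00976 over the listed genes and 0.0257 over all genes. The lists too were chosen with earlier results of these data known, so these counts cannot show an excess over other genes. Of 16 tested semaphorins, 1 rose, Sema3c, and 1 fell, Sema3e, a ligand of Plxnd1. Sema3e had 8.15, 7.88 and 7.78 on Ta, against 8.84, 8.63 and 8.87 on Ti, a difference of -0.84 ± 0.13 (limma adjusted p = 0.0408). Its second probe differed by -0.84 as well but did not pass (limma probe test adjusted p = 0.0699). Other class 3 semaphorins did not pass: Sema3b differed by -0.61, Sema3d by -0.16 and Sema3f by 0.32, and Sema3g was well above background on 0 of 6 arrays.

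Among 9 tested neuropilins and plexins, Plxnb1, a receptor of class 4 semaphorins, was the 1 gene that rose, and 0 fell. Plxnb1 had 6.30, 6.22 and 6.32 on Ta, against 5.71, 5.82 and 5.42 on Ti, a difference of 0.63 ± 0.12 (limma adjusted p = 0.0486). This was the only one of its 5 probes that was well above background on any array. The Plxnb1 call was lost with quantile and median scaling (adjusted p = 0.053 and 0.0531), and with normexp correction the difference was 0.36. Nrp2, the other neuropilin, differed by 0.25 ± 0.09 (adjusted p = 0.116), with the groups apart, and its other probes by 0.58 and 0.45. Plxna2, Plxna3 and Plxnd1 differed by 0.03, 0.29 and -0.34 with overlapping groups, and Plxna4 was well above background on 0 of 6 arrays. Vegfa, another ligand of Nrp1 and the leading vessel growth factor, differed by 0.38 ± 0.13 (adjusted p = 0.121) by its brightest probe and by 0.99 and 0.78 by the others.

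Of 15 tested semaphorin signal transducers, 0 rose and 2 fell. Both are MICAL enzymes, which oxidise actin downstream of plexins. Mical1 differed by -0.79 ± 0.14 and Mical2 by -0.53 ± 0.08 (limma adjusted p = 0.0461 and 0.0408). Probes of Mical2 disagreed, with -0.44, -0.40 and 0.60 by the others, so its direction rests on the probe, and as the mean of its probes Mical2 did not pass (adjusted p = 0.187). Of 18 tested Slits, Robos and transducers, 0 passed, with a median of 0.0703. At an unadjusted p under 0.05 there were 8 of the 18, against 30% of all genes. Slit1 differed by 0.11 and Robo4, the endothelial Robo, by 0.02. Robo2 was not tested, since its brightest probe was well above background on 0 Ta and 2 Ti arrays.

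Of 13 tested netrins, RGMs and receptors, Ntn1 rose and Dock1, a Rac activator downstream of DCC, fell by 0.63 ± 0.12 on the log2 scale (limma adjusted p = 0.0493). The Dock1 call was lost with scaling over detected probes (adjusted p = 0.0515). The receptors that bind netrin-1 did not pass. Neo1, which encodes neogenin, differed by -0.21, Unc5a by 0.24, Unc5b by -0.27 and Unc5d by 0.45, and of these only Unc5b had groups apart. Unc5d was well above background on 2 Ta arrays and 1 Ti array, and with the others raised to the floor it differed by 0.13. Dcc was well above background on 0 of 6 arrays, and Unc5c was well above background on 0 Ta and 1 Ti array and was not tested.

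Of 20 tested neurotrophins, GDNF family genes and receptors, Ntrk2 rose and 2 fell, Bdnf and Gfra1. Ntrk2, the receptor of BDNF, had 7.28, 7.37 and 7.25 on Ta, against 6.53, 6.71 and 6.38 on Ti, a difference of 0.76 ± 0.11 (adjusted p = 0.0397). Its other 5 probes were well above background on at most 1 array. Gfra1, the GDNF receptor subunit, fell by 1.68 ± 0.26 (adjusted p = 0.0422), and its other probes that were above background differed by -1.45 and -1.66. Ngfr, the receptor p75, differed by -1.06 ± 0.47 (adjusted p = 0.192), and Sort1, which encodes the pro-neurotrophin receptor sortilin, by -0.60 ± 0.17 (adjusted p = 0.0812).

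Of 17 tested ephrins and Eph receptors, Ephb6, an Eph receptor without kinase activity, rose by 1.16 ± 0.17 (limma adjusted p = 0.0408) and Epha3 fell by 2.32 ± 0.42 (adjusted p = 0.0461). Epha3 was well above background on 1 Ta and 3 Ti arrays, and with the other Ta arrays raised to the floor it differed by -2.15. It passed the filter mainly through Ti, was not tested under the filter on all 6 arrays, and differed by -0.56 with normexp correction. The list's median was 0.155.

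**Figure D3:**
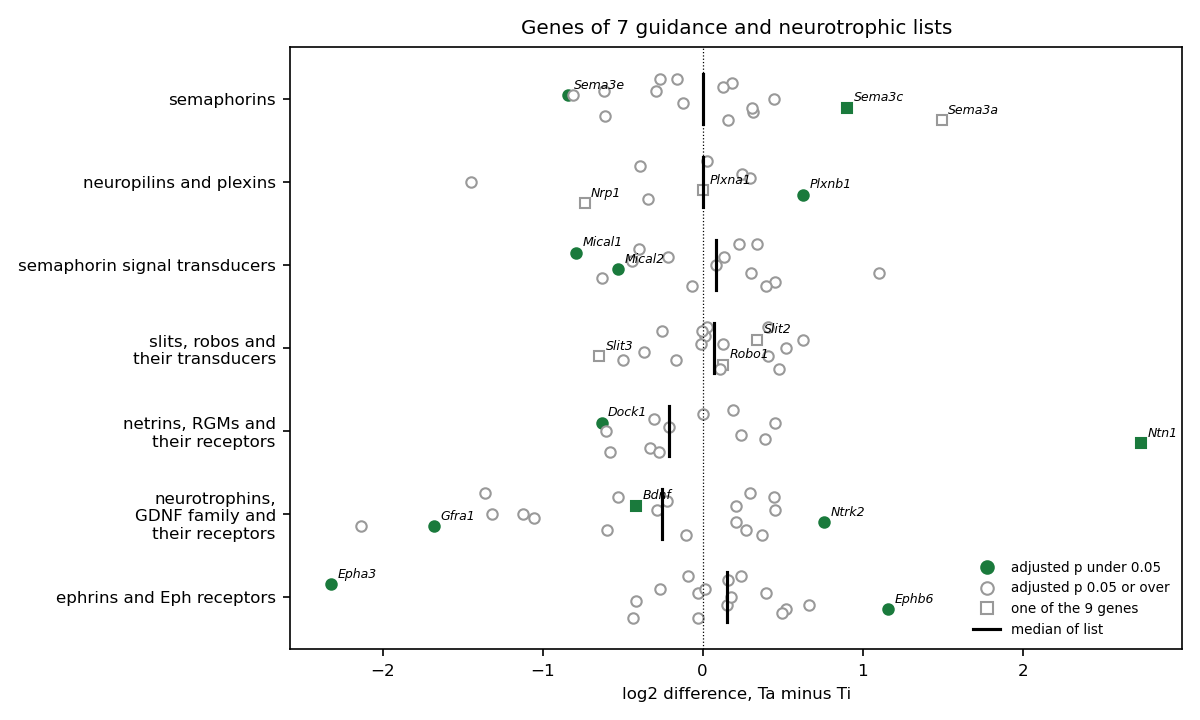
Log2 difference, Ta minus Ti (horizontal axis), of the tested genes of 7 lists of guidance and neurotrophic genes (rows). Squares are the 9 genes, green fill marks an adjusted p under 0.05, and the black line is the list's median. The medians run from -0.251 to 0.155, and Ntn1 at 2.74 and Epha3 at -2.32, both dim on some arrays of the lower group, lie farthest from 0.

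Markers of stromal and other cell types were read on the same arrays. In such bulk samples, fewer cells of a type and less RNA per cell cannot be told apart. Of 13 tested stromal markers, 2 rose, Thy1 and Cxcl12, against 2.66% of all genes, and 0 fell. Lepr was well above background on 0 of 6 arrays. The second Thy1 probe differed by 0.36 (limma probe test adjusted p = 0.166). The list's median was 0.0656, with 7 of the 13 above 0. Without passing but with groups apart, Vcam1 and Prrx1 differed by 0.67 and 0.39, and Col3a1, Eng and Itgb1 by -0.68, -0.37 and -0.25. Of 12 macrophage and monocyte markers, 0 passed by limma (8 at an unadjusted p under 0.05). Their median was -1.17 and their summed scaled signal ran from 45720 to 82690 on Ta and from 84310 to 98290 on Ti. C1qb, among the markers with the largest differences, had 11.58, 9.60 and 8.61 on Ta, against 12.68, 12.95 and 12.67 on Ti. Its Ta replicate 1 was nearest to Ti, as in 7 of the 9 genes and in 54.8% of all genes. By brightest probes, Cd14 was the 1 marker of the 12 above 0, and it differed by 0.34 with the groups apart. Tyrobp, the largest part of the sum, differed by -0.48 with overlapping groups, and its second probe by 0.30. Cd68, Adgre1 and Cd163 differed by -0.28, -0.15 and -0.49 with overlapping groups. The summed signal of 7 tested Schwann cell markers ran from 7091 to 8918 on Ta and from 11230 to 12910 on Ti. The sum was mostly Pmp22, at -0.46 without passing, and S100b, which fell by 1.11. Groups were apart for 5 of the 7, and Sox10 and Erbb3 differed by -0.26 and -0.37 with overlapping groups. Mbp differed by -1.17 by its brightest probe and by 0.44 by its second. Gfap and Foxd3 were not well above background. Of 5 tested neuron markers, Stmn2 fell, with a difference of -2.36 that was -2.26 with dim arrays raised to the floor. Tubb3 and Th differed by 0.59 and 0.03, and Map2 and Gap43 by -0.85 and -1.22, without passing. Stmn2 was well above background on 2 Ta and 3 Ti arrays, and Gap43 on 1 Ta and 3 Ti arrays. Snap25 was well above background on 2 Ta and 0 Ti arrays, and Syp, Syn1, Rbfox3 and Nefl were well above background on 0 of 6 arrays. Of 8 tested endothelial markers 0 passed by limma (2 at an unadjusted p under 0.05), and Emcn and Cldn5 were not well above background. The sums overlapped, with 2448 to 2698 on Ta and 2356 to 2511 on Ti. They were mostly Vwf and Egfl7, at 0.06 and 0.38, the 2 markers above 0. The list's median was -0.334, with Tie1 and Pecam1 at -0.99 and -0.96 with overlapping groups and Tek at -0.52 with groups apart. The part of these cells in the differences of the 9 genes was not tested.

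**Figure D4:**
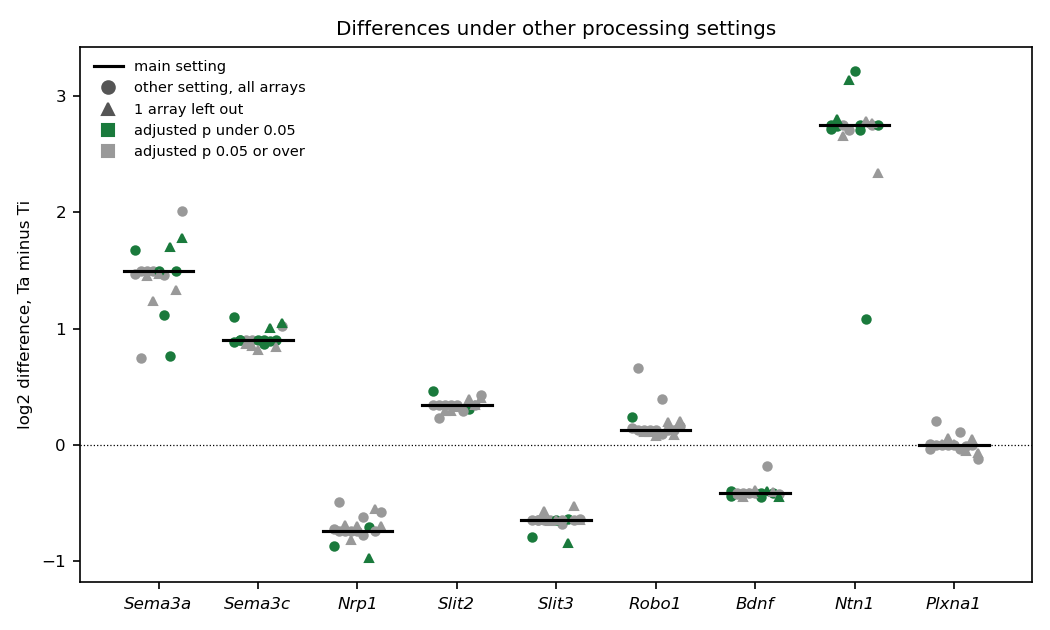
Log2 difference, Ta minus Ti (vertical axis), of the 9 genes under 18 other settings (17 for Ntn1). Circles are other processing choices with all arrays, triangles leave out 1 array, green marks an adjusted p under 0.05, and the line is the value reported in the text. For every gene but Plxna1 all points lie on the same side of 0.

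Under the other settings in the plot of processing settings, the difference ran from 1.08 to 3.21 for Ntn1, from 0.82 to 1.10 for Sema3c and from -0.45 to -0.18 for Bdnf. Ntn1 passed in 10 of 17 settings, Sema3c in 11 of 18 and Bdnf in 8 of 18. Sema3a, which did not pass in the main setting, passed in 7 of 18, with differences from 0.74 to 2.01. Slit3 passed in 4, Nrp1 in 3, Slit2 in 2, Robo1 in 1 and Plxna1 in 0. With the slide row as a block, so that Ti replicate 1 is in effect the 1 array on the Ti side, the differences were 2.70 for Ntn1, 1.02 for Sema3c and -0.42 for Bdnf, and none of the 9 genes passed (limma adjusted p between 0.191 and 0.652).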

How the data were processed

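Cy3-labelled RNA of 6 cultures was hybridised to one-colour Agilent arrays. The deposited files hold linear spot intensities, which the authors obtained with Agilent Feature Extraction 12.0, per the submitters' processing notes. Per the file headers this subtracted the background, and the probe positions are on build rn4. From these, log2 of the processed intensity was taken and centred on each array's 75th percentile, put back on the mean percentile. Outlier-flagged spots were left out and spots of a probe averaged. Probes well above background on at least 3 of 6 arrays were kept, a gene being its brightest probe. Names come from the file of Ta replicate 1, updated for 31220 probes from RefSeq's GRCr8 gene table. A RefSeq promoter table was used for start sites only, and protein sequences were not used here. The printed probe sequences are those of the scanner files.

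Groups were compared in R 4.3.3 by limma 3.58.1 (lmFit, then eBayes), two-sided, with Benjamini-Hochberg adjustment over all genes or probes and a threshold of 0.05. The methods were tested on simulated data. SE is limma's moderated standard error. A gene of the lists is not reported here and was left out of their counts. The genes and lists were chosen with earlier results of these data known. Named genes were the 9 genes, up to 4 others per list among those past the test, and direct binding partners whatever their result. Replicates are called independent experiments in the design text, with no animals named, so p-values measure only the spread between these cultures. Precision is limited by the number of arrays. The alternatives tried were other scalings, normexp correction with an offset of 50, other filters, blocks, variance settings, array weights, probe rules, a threshold on unadjusted p, and each array left out in turn. Raising dim arrays to a floor, the lowest signal of any probe well above background, was added after the data were seen.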

Additional observations from a re-analysis of the deposited data

How the results depend on the processing

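The reported setting called 811 genes (521 higher and 290 lower on Ta), 3 of the 9 genes, 12 pathway genes and 1110 probes. In the same order, normexp correction gave 2585, 6, 32 and 3345, eBayes with trend and robust settings 2086, 4, 28 and 2689, array weights 10158, 8, 80 and 13075, and an unadjusted p under 0.05 gave 5871, 7, 55 and 7568. Genes as their dimmest probe gave 511, 2 and 6. With no filter on dim probes all 4 counts were 0 (5814 genes at an unadjusted p under 0.05), as with the slide row as a block (3829). Leaving out 1 array gave 0 to 3211 genes, 0 to 6 of the 9 genes, 0 to 37 pathway genes and 0 to 3982 probes. The upper ends were without Ta replicate 1, and without Ti replicate 2 there were 1559, 4, 19 and 2447. Median scaling called 415 higher and 361 lower. Arrays with the same replicate number deviated together with correlations of 0.064, 0.13 and -0.18, and those with different numbers with -0.18 to 0.18. With only 3 arrays per group, whose deviations depend on each other, these values cannot show whether the replicate numbers pair the samples. The replicate block gave 8 genes, 0 of the 9, 0 pathway genes and 25 probes. The cause of these shifts was not tested. Some differences turned sign. Most of these were near 0 in the main setting, but Unc5a was at 0.24, Unc5d at 0.45 and Mical2, which had passed the test, at -0.53. Plxna1 was at -0.03208 with median scaling, -0.01194 with normexp, -0.1167 with the slide row block, -0.03192 with array weights, and -0.06471 to 0.06187 without 1 array. Plxna2 was at -0.003826 with median scaling, -0.0813 with the slide row block, -0.1015 as the mean and -0.2337 as the dimmest of its probes, and -0.01626 to 0.09656 without 1 array. Robo4 was at -0.004202 with quantile and -0.01809 with median scaling, and -0.05693 to 0.05519 without 1 array. Slit1 was at -0.0875 with the slide row block and -0.063 to 0.2113 without 1 array. With that block Unc5a was at -0.04601 and Unc5d at -0.06938. Mical2 as its dimmest probe was at 0.6046. Over all the differences followed across settings, those just named included, 459 of the values kept sign and side of the threshold. Another 96 no longer passed, 31 newly passed and 21 turned sign.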

Other observations

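Of the 20 tested genes of the neurotrophin list, 13 had groups apart, Bdnf, Ntrk2 and Gfra1 included, which held for 35.9% of all genes. From those that did not pass the test by their brightest probe, Gdnf, Ntrk3 and Ptn were picked after their values were seen. Gdnf, a neurotrophic factor that signals through Gfra1 and Ret, had 9.26, 9.60 and 9.68 on Ta, against 9.07, 9.13 and 8.98 on Ti, a difference of 0.45 ± 0.13 (limma adjusted p = 0.0854). Its second probe, well above background on all 6 arrays, differed by 0.97 and passed limma's probe test (adjusted p = 0.0438). Ntrk3, the receptor of neurotrophin-3, had 6.17, 5.19 and 4.56 on Ta, against 6.85, 6.67 and 6.47 on Ti, a difference of -1.36 ± 0.39 (limma adjusted p = 0.0864). Ptn, which encodes the secreted heparin-binding factor pleiotrophin, had 8.57, 7.27 and 5.02 on Ta, against 9.16, 8.70 and 9.43 on Ti, a difference of -2.14 ± 0.85 (limma adjusted p = 0.157). The 3 Ptn values on Ta spread more widely than those of the brightest probe of any of the 9 genes on Ta.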
